A study of Mus musculus with 24 samples.

Results

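The 10 genes described here serve acid and base transport in the intercalated cells of the kidney collecting duct, and were followed in mouse kidneys through ureter obstruction and its reversal. They were chosen by name and matched on the gene symbol of the deposited expression table: Slc4a1, Slc26a4, Foxi1, Atp6v1b1, Atp6v0d2, Atp6v1g3, Slc4a9, Hmx2, Rhcg and Aqp6. All 10 were present, 1 entry each, among the 14785 genes of the table.

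The study sequenced polyA-selected RNA from kidneys of male C57/BL6 mice aged 8 to 9 weeks at the start, and its title places the tissue in the kidney cortex. Each of 6 groups held 4 animals out of 10, and the reason for choosing those 4 is not given in the sources used here. Control mice had sham surgery (sham). In the obstructed mice 1 ureter was tied off, and kidneys were taken 2 days (UUO2) or 7 days (UUO7) later. In the recovery mice the tied ureter was reimplanted on day 7, and kidneys were taken after 1 week (R1W), 2 weeks (R2W) or 4 weeks (R4W) of recovery. Titles number the samples within each group, and name mice for the sham group; each sample was taken as 1 animal, as the design text gives 4 animals a group. Where a label does not name an animal, p-values measure only the spread between these samples. R4W replicate 2 carries 4 weeks in its title and 2 weeks in its treatment label. It was grouped by its title, and the tests that use it were repeated without it.

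Intercalated cells sit among the principal cells of the connecting tubule and collecting duct and set the final acid and base content of the urine. Type A cells secrete acid through a vacuolar proton pump (V-ATPase) on the luminal side and return bicarbonate to the blood through Slc4a1, the anion exchanger AE1. Type B cells secrete bicarbonate through Slc26a4, the luminal chloride-bicarbonate exchanger pendrin, and carry Slc4a9, the anion exchanger AE4. The forkhead transcription factor Foxi1 is required for intercalated cells to form and for the transcription of several pump and exchanger genes.

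Levels are FPKM, sequenced fragments per kilobase of transcript, scaled to the size of the library, so genes of different length can be set side by side. Fold changes are log2 differences of FPKM + 1 from limma with all 24 libraries in 1 model, and a gene was called changed at an adjusted p under 0.05 over all 14785 genes. The scaling of the libraries matters for some of the comparisons. As deposited, the median gene stood 0.42 log2 units higher in UUO7 than in sham, 0.37 higher in R1W, 0.32 higher in R2W and 0.30 higher in R4W. After the libraries were rescaled to a common median ratio, the shift for UUO7 was 0.01. All 10 genes had values above 0 in all 24 libraries, and the 7 proximal tubule markers, which mark kidney cortex, summed to 5227 to 6263 FPKM in sham. Values below are as deposited unless rescaling is named, and the rescaled values are printed where they change a call of the 10 genes. For the gene lists and cell type markers rescaled counts are printed for part of the comparisons only. Implied depth, read from the smallest steps of 1073 single-transcript genes, ran from 24542000 to 35317000 fragments in 20 libraries, and no such steps were found in the 4 UUO2 libraries. Those 4 also stood apart in the mitochondrial ribosomal RNA mt-Rnr1, chosen after its values were seen, at 2343 to 2832 FPKM against 342 to 709 FPKM in the other 20. Whether UUO2 differs from the other groups by its 2 days of ligation or by how its libraries were made cannot be told apart for any value that sets UUO2 beside them.

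Slc4a1 had the largest fold change of the 10 in obstruction. It lies on chromosome 11, from 102348824 to 102366203 on the minus strand (mm10). The 4 sham animals held 10.2, 19.5, 12.8 and 15.8 FPKM. After 2 days of obstruction the values were 1.46, 9.70, 1.75 and 1.24 FPKM, and after 7 days they were 0.390, 0.600, 0.560 and 0.570 FPKM. The UUO7 values lay below those of every other library, with no overlap with any group. During recovery Slc4a1 stood at 6.89, 3.15, 3.07 and 5.49 FPKM in R1W and at 5.80, 8.80, 6.62 and 9.65 FPKM in R2W. In R4W it reached 13.1, 18.0, 8.98 and 16.0 FPKM. R1W and R2W each lay wholly below sham, and R4W overlapped it. The group mean fell from 14.6 ± 4.00 FPKM (SD, n = 4) in sham to 0.530 ± 0.0949 FPKM (SD, n = 4) in UUO7, which was 3.64% of the sham mean, and stood at 31.9%, 53.0% and 96.2% of it in R1W, R2W and R4W. The log2 fold change in UUO7 was -3.31 (SE 0.36, adjusted p = 4.40e-08 by limma).

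Slc4a1 is also the band 3 protein of red blood cells, so blood left in the tissue could add to it. The summed level of 6 erythroid markers was 312 to 667 FPKM in sham and 366 to 497 FPKM in UUO7, and in UUO7 the test called 1 of the 6 higher, Epb42, and none lower. In UUO2 the sum was 98.4 to 351 FPKM, and 4 of the 6 were called lower and 1, Epb42, higher. Of all genes 17.8% were called lower and 60.1% higher in UUO7, and 17.0% and 32.3% in UUO2. The erythroid share of the Slc4a1 values was not tested.

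Aqp6, a water and anion channel of vesicles in type A cells, was not called changed in UUO7 as deposited. It lies on chromosome 15, 99601400 to 99605477, plus strand. Sham animals held 13.6, 28.1, 14.2 and 22.3 FPKM, and UUO7 animals held 13.2, 12.4, 15.6 and 15.4 FPKM, so the groups overlapped. The log2 fold change in UUO7 was -0.38 (SE 0.21, adjusted p = 0.10 by limma), and -0.84 after rescaling (adjusted p = 0.00132). Without sham replicate 1 or 3 it was called lower as deposited too (-0.53 and -0.51, adjusted p = 0.0324 and 0.0433 by limma), and without sham replicate 2 the log2 fold change was -0.20 and not called. Sham replicate 2, with the highest sham level of Aqp6 and of Slc4a1, also held 975 FPKM of summed principal cell markers against 395 to 542 FPKM in the other 3 sham libraries, and 30.5 FPKM of urothelial markers against 1.42 to 2.17 FPKM. The part of sampled tissue in its values was not tested. R4W animals held 25.8, 37.3, 17.7 and 28.6 FPKM, also overlapping sham. Among the other aquaporins of the collecting duct, Aqp2, the vasopressin-regulated water channel of principal cells, ran from 143 to 529 FPKM in sham and from 64.0 to 113 FPKM in UUO7.

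**Figure D1:**
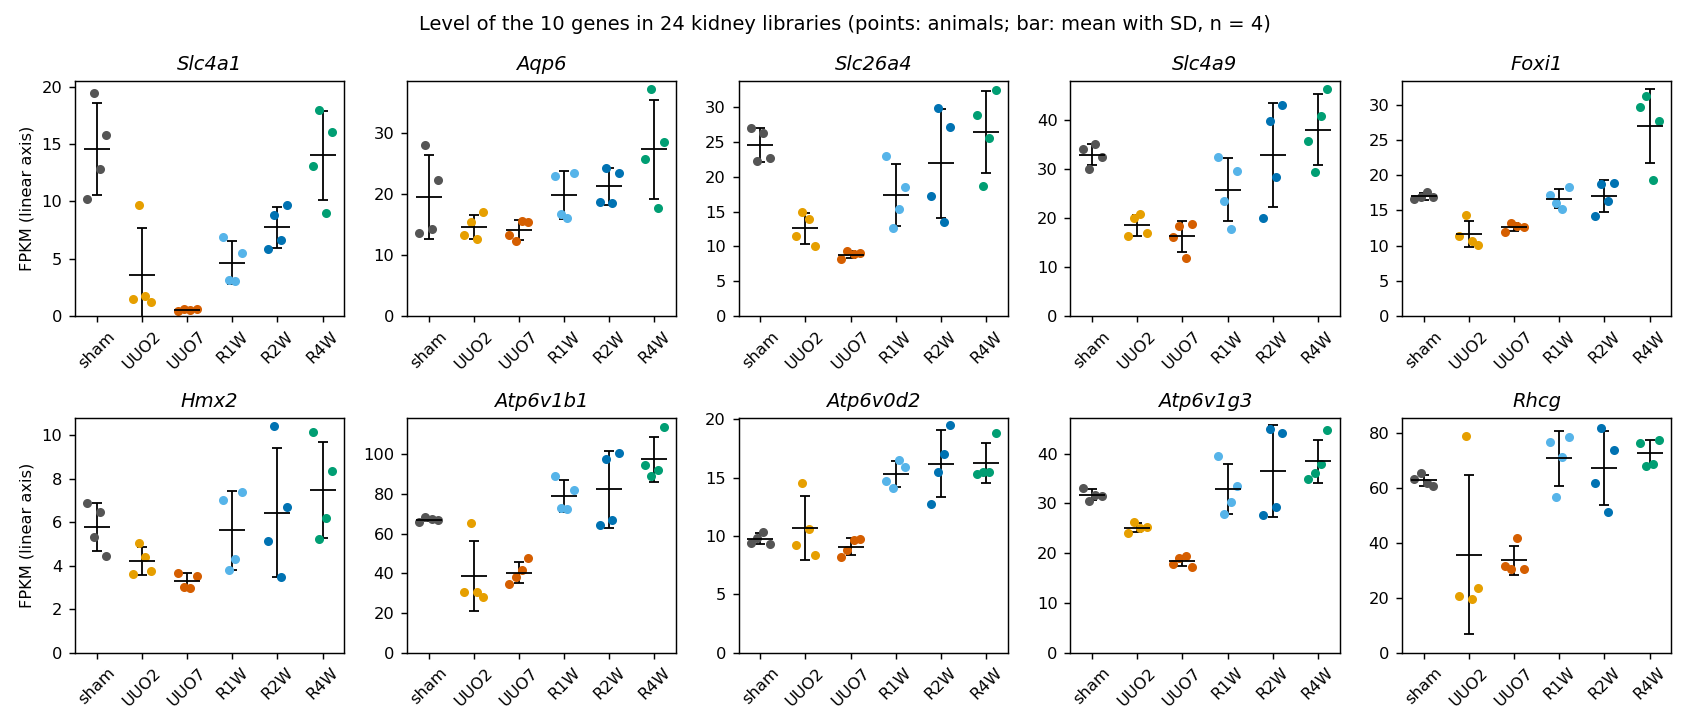
Level of the 10 genes (FPKM, linear axis from 0) in each of the 24 libraries by group; points are animals, and the bar is the mean with SD, n = 4. Slc4a1 drops from 14.6 FPKM in sham to 0.530 FPKM in UUO7 and climbs over R1W, R2W and R4W, while Atp6v0d2 as deposited stays near its sham level in UUO7 and is higher in all 3 recovery groups. After rescaling Atp6v0d2 was called lower than sham in UUO7 (-0.54), and called higher in R4W (0.33) but not in R1W or R2W.

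Both type B exchangers fell. Slc26a4, pendrin, lies on chromosome 12, 31519827 to 31559969, minus strand. Its sham values were 27.1, 22.4, 26.4 and 22.7 FPKM. After obstruction they were 11.5, 14.9, 14.0 and 10.1 FPKM in UUO2 and 8.14, 9.29, 8.85 and 9.02 FPKM in UUO7. Each obstructed group lay wholly below sham, and UUO7 lay wholly below UUO2. In recovery Slc26a4 stood at 23.0, 12.6, 15.4 and 18.6 FPKM in R1W, 17.2, 29.9, 13.5 and 27.2 FPKM in R2W and 29.0, 18.7, 25.6 and 32.6 FPKM in R4W. Each recovery group overlapped sham as deposited, and after rescaling R1W lay wholly below it. The log2 fold change in UUO7 was -1.38 (SE 0.21, adjusted p = 3.96e-06 by limma), a mean of 35.8% of sham. Slc4a9, AE4, on chromosome 18, 36528157 to 36541293, plus strand, ran from 29.99 to 34.97 FPKM in sham and from 11.8 to 18.8 FPKM in UUO7 without overlap, a log2 fold change of -0.99 (adjusted p = 1.68e-04 by limma). Its UUO7 mean was 49.5% of the sham mean.

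Both transcription factors were also lower in UUO7. Foxi1 lies on chromosome 11, 34204338 to 34208089, minus strand. The 4 sham animals were close together, at 16.6, 17.0, 17.6 and 16.8 FPKM. UUO2 animals held 11.4, 14.4, 10.7 and 10.1 FPKM, and UUO7 animals 11.9, 13.2, 12.7 and 12.6 FPKM. Both obstructed groups lay wholly below sham and overlapped each other. R1W ran from 15.2 to 18.3 FPKM and R2W from 14.2 to 18.9 FPKM, both overlapping sham, and R4W stood at 29.7, 31.2, 19.3 and 27.7 FPKM, above every sham animal. After rescaling R1W and R2W lay wholly below sham (log2 fold changes -0.45 and -0.37, both called), and R4W overlapped it. The log2 fold change in UUO7 was -0.40 (SE 0.12, adjusted p = 0.00433 by limma), a mean of 74.1% of sham. Hmx2, a homeobox transcription factor on chromosome 7, 131548773 to 131558014, plus strand, ran from 4.47 to 6.87 FPKM in sham and from 2.98 to 3.67 FPKM in UUO7 without overlap, a log2 fold change of -0.65 (adjusted p = 0.0159 by limma).

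Foxi1 is a forkhead factor, and forkhead proteins bind short cores such as TGTTTAC and TATTTAC. RefSeq promoter windows (GRCm38.p6) were available for 7 of the 10 genes, in 8 windows, and the 250 bases before each start were searched for both cores on both strands. TGTTTAC, or its reverse complement GTAAACA, occurred in 3.17% of all 32851 windows of that length. TATTTAC, or GTAAATA, occurred in 2.73% of them, and either core in 5.76%. Among the 8 windows, 1 held TGTTTAC (Atp6v1b1, 98 to 92 bases before the start) and 1 held TATTTAC on the opposite strand (Hmx2, 71 to 65 bases before the start). The remaining windows, those of Atp6v1g3, Rhcg, Foxi1, Slc26a4 and Aqp6 and a second one of Hmx2, held neither. A match is a description of letters only. The windows with a core are printed, with the core in capitals, together with that of Slc26a4, the exchanger that lost most after Slc4a1, which has none. They lie at chr6:83742767-83743016 (plus strand), chr7:131548507-131548756 (plus strand) and chr12:31559985-31560234 (minus strand), each written 5′ to 3′ along the gene.
Atp6v1b1: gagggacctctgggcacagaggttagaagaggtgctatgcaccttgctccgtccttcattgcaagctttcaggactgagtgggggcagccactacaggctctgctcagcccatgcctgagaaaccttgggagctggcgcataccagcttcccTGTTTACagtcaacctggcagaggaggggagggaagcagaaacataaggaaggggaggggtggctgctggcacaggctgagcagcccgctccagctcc
Hmx2: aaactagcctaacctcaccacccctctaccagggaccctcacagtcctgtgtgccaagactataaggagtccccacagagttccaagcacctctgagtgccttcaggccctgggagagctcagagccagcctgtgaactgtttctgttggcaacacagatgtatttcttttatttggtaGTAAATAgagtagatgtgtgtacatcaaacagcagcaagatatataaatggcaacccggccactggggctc
Slc26a4: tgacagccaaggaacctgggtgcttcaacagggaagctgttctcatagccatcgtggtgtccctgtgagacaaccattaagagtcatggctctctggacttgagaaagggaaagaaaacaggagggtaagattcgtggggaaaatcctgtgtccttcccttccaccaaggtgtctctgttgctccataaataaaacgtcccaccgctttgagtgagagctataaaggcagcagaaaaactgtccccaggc

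Of the 3 V-ATPase subunits, Atp6v1b1 and Atp6v1g3 were called lower in UUO7 and Atp6v0d2 was not. Atp6v1b1, the B1 subunit whose loss causes distal renal tubular acidosis with deafness in people, lies on chromosome 6, 83742990 to 83758855, plus strand. Sham animals held 66.0, 68.2, 67.5 and 66.7 FPKM. UUO2 animals held 30.8, 65.4, 30.4 and 28.0 FPKM, and UUO7 animals 34.6, 37.9, 41.5 and 47.5 FPKM. Both obstructed groups lay below all sham animals, UUO2 replicate 2 by less than 1 FPKM. R1W stood at 89.1, 72.8, 72.4 and 81.8 FPKM, R2W at 64.3, 97.4, 66.9 and 101 FPKM, and R4W at 94.7, 88.9, 92.2 and 114 FPKM. As deposited, R1W and R4W lay wholly above sham, and R2W overlapped it. After rescaling each recovery group overlapped sham, with log2 fold changes of -0.22 in R1W and 0.15 in R4W, neither called. The log2 fold change in UUO7 was -0.73 (SE 0.19, adjusted p = 0.00189 by limma).

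Atp6v0d2, the d2 subunit of the membrane sector of the pump, lies on chromosome 4, 19876841 to 19922605, minus strand. Its sham values were 9.42, 9.85, 10.4 and 9.35 FPKM, and its UUO7 values were 8.20, 8.78, 9.63 and 9.72 FPKM. The groups overlapped, and the log2 fold change was -0.09 (SE 0.13, adjusted p = 0.507 by limma). After rescaling it was -0.54 with no overlap (adjusted p = 0.00179). R1W stood at 14.7, 14.1, 16.5 and 15.9 FPKM, R2W at 12.7, 15.5, 17.1 and 19.6 FPKM and R4W at 15.3, 15.5, 15.5 and 18.8 FPKM. All 12 recovery animals lay above all sham and UUO7 animals. After rescaling R1W and R2W overlapped sham and were not called (log2 fold changes 0.19 and 0.30), and R4W lay wholly above it. Atp6v0d2 is also known from osteoclasts and macrophages. All 7 macrophage markers were called higher in UUO7 and in R4W against sham, where 60.1% and 54.8% of all genes were called higher. Their summed level was 48.7 to 82.2 FPKM in sham, 943 to 1134 FPKM in UUO7 and 693 to 1373 FPKM in R4W. Atp6v0d2 stood at 93.2% of its sham mean in UUO7 and at 167% in R4W, and after rescaling at 66.4% and 128.7%. The part of other cell types in the Atp6v0d2 level was not tested. Of 6 osteoclast-like markers 2 were measured. Ctsk, a protease of osteoclasts, was higher in UUO7 and R4W (group means 1.87 FPKM in sham, 30.2 FPKM in UUO7 and 18.4 FPKM in R4W), and Acp5, a phosphatase, was lower in UUO7 (42.8 FPKM in sham, 31.2 FPKM in UUO7 and 36.3 FPKM in R4W).

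Atp6v1g3, the G3 subunit of the catalytic sector, lies on chromosome 1, 138273738 to 138289462, plus strand. It ran from 30.5 to 33.2 FPKM in sham, 24.0 to 26.3 FPKM in UUO2 and 17.2 to 19.5 FPKM in UUO7. The 3 groups did not overlap, and the log2 fold change in UUO7 was -0.75 (SE 0.13, adjusted p = 1.75e-05 by limma). Rhcg, an ammonia transport protein of the connecting tubule and collecting duct, lies on chromosome 7, 79593363 to 79617657, minus strand. Sham animals held 63.2, 65.4, 61.8 and 60.8 FPKM. UUO2 animals held 20.8, 79.0, 19.5 and 23.5 FPKM, and UUO7 animals 31.6, 30.7, 41.6 and 30.5 FPKM. UUO2 replicate 2 lay above all sham animals and the other 3 UUO2 animals far below them, while UUO7 lay wholly below sham. The log2 fold change in UUO7 was -0.89 (SE 0.28, adjusted p = 0.00593 by limma).

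After 7 days of obstruction 8 of the 10 genes were called lower than in sham and none higher, where 17.8% of all genes were called lower and 60.1% higher. The median log2 fold change of the 10 genes was -0.74, beside 0.42 for all genes. After rescaling all 10 were called lower, against 36.5% of all genes. The authors' deposited table also gives all 10 as lower at an adjusted p under 0.05, with 37.9% of all genes lower, and its log2 fold changes run from -4.90 (Slc4a1) to -0.61 (Atp6v0d2). In order of what was left of the sham mean, the genes stood at 3.64% (Slc4a1), 35.8% (Slc26a4), 49.5% (Slc4a9), 53.5% (Rhcg), 57.0% (Hmx2), 58.0% (Atp6v1g3), 60.2% (Atp6v1b1), 72.4% (Aqp6), 74.1% (Foxi1) and 93.2% (Atp6v0d2). Differences between neighbours in that order were not tested. Most markers of other nephron segments were lower in UUO7 too, 7 of 7 for the proximal tubule (median -2.05), 4 of 5 for the thick ascending limb (median -1.02) and 4 of 6 for the distal convoluted and connecting tubule (median -1.34). The remaining markers were called higher, Cldn16 (0.97) of the thick ascending limb and Trpv5 (1.49) and Trpm6 (0.29) of the distal convoluted and connecting tubule. The part of these segments in the values of the 10 genes was not tested. In bulk tissue RNA fewer intercalated cells and less RNA per cell cannot be told apart.

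After 2 days of obstruction 7 of the 10 genes were called lower and none higher, where 17.0% of all genes were called lower and 32.3% higher. After rescaling 7 were again called lower, against 25.5% of all genes. The 3 not called as deposited were Aqp6 (log2 fold change -0.34), Hmx2 (-0.37) and Atp6v0d2 (0.09). UUO2 replicate 2 stood furthest from the other 3 libraries for Slc4a1, Atp6v1b1 and Rhcg. Without it 7 were again called lower, and the log2 fold changes moved from -2.09 to -2.62 for Slc4a1 (adjusted p = 3.15e-08 by limma), from -0.87 to -1.15 for Atp6v1b1 and from -1.06 to -1.52 for Rhcg. In that fit 52.7% of all genes were called in either direction, against 49.2% with all libraries. With all 4 libraries Rhcg was not called in a fit on the 2 groups alone (adjusted p = 0.0565 by limma) nor in the authors' deposited table (adjusted p = 0.133). The authors' deposited table calls 8 of the 10 lower in UUO2, all but Rhcg and Atp6v0d2, and so also Aqp6 (adjusted p = 0.0403) and Hmx2 (adjusted p = 0.00119), with 24.4% of all genes lower. Atp6v1g3 (-0.32, adjusted p = 0.0414 by limma) lost its call in 7 of the 8 fits that left out 1 library, all but the one without UUO2 replicate 2 (adjusted p = 0.0519 to 0.0912). The same library also held the highest UUO2 level of genes of other tubule segments. Its summed principal cell markers reached 850 FPKM against 395 to 477 FPKM in the other 3, its thick ascending limb markers 1601 FPKM against 741 to 1016 FPKM, and its distal convoluted and connecting tubule markers 300 FPKM against 115 to 155 FPKM. The part of sampled tissue in these values was not tested.

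**Figure D2:**
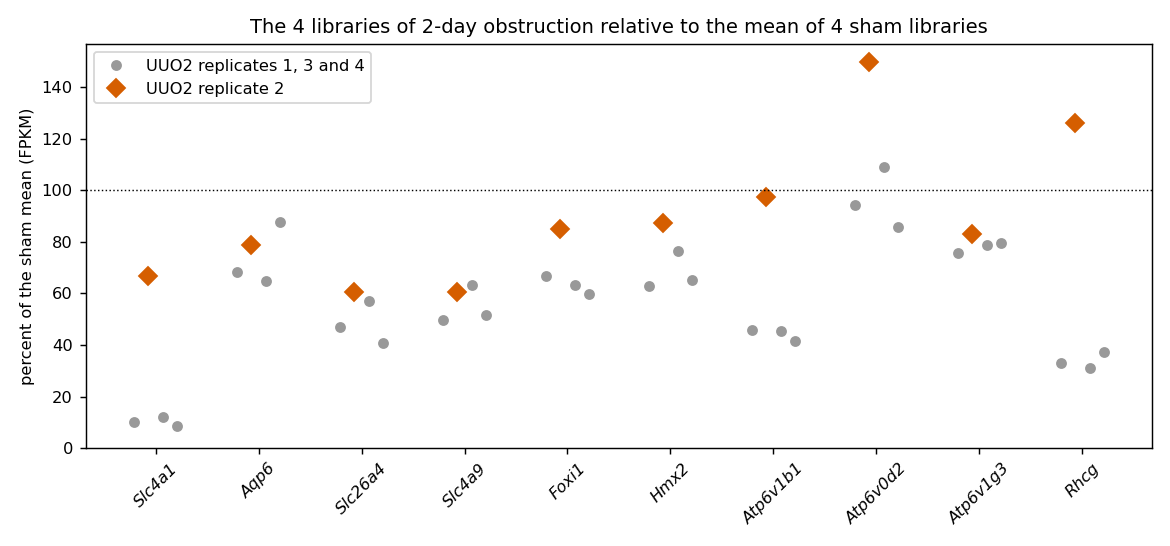
Level of the 10 genes in each of the 4 UUO2 libraries as a percentage of the sham mean (vertical axis, linear from 0; the dotted line is 100%). Diamonds mark replicate 2, which holds 79.0 FPKM of Rhcg against 19.5 to 23.5 FPKM in the other 3 and lies among them or just above for Slc26a4, Slc4a9 and Atp6v1g3.

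From day 2 to day 7 of obstruction, Slc4a1 (log2 fold change -1.22, adjusted p = 0.00511 by limma) and Atp6v1g3 (-0.43, adjusted p = 0.00571 by limma) were called lower again, 2 of the 10 where 14.7% of all genes were called lower and 52.0% higher. After rescaling, 4 were called lower, Slc26a4 (-0.78) and Atp6v0d2 (-0.51) in addition, against 31.9% of all genes. The authors' deposited table calls 6 lower, namely Aqp6, Slc26a4, Slc4a9, Hmx2, Atp6v0d2 and Atp6v1g3, with 33.7% of all genes lower, and lists no adjusted p for Slc4a1. Without UUO2 replicate 2, Slc4a1 (-0.70, adjusted p = 0.0173 by limma) and Atp6v1g3 (-0.41) were called lower, and Rhcg (0.63) and Atp6v1b1 (0.42) were called higher on day 7 than on day 2. Without UUO2 replicate 4, Slc26a4 was called lower as well (-0.55, adjusted p = 0.0352 by limma). After rescaling without replicate 2, neither Rhcg nor Atp6v1b1 was called, at 0.29 and 0.09. The library difference given above for UUO2 applies to all of these values.

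In the first week after reversal 8 of the 10 genes were called higher than in UUO7 and none lower, where 6.47% of all genes were called higher and 8.04% lower. Slc4a1 rose by 1.83 (SE 0.36, adjusted p = 0.00313 by limma), Rhcg by 1.05, Atp6v1b1 by 0.96, Slc26a4 by 0.87, Atp6v1g3 by 0.79, Atp6v0d2 by 0.69, Slc4a9 by 0.62 and Foxi1 by 0.38 on the log2 scale. The 2 not called were Hmx2 (0.59, adjusted p = 0.0932 by limma) and Aqp6 (0.44, adjusted p = 0.156). After rescaling 7 were called, against 7.26% of all genes, and Slc4a9 was not (0.65, adjusted p = 0.0581). The authors' deposited table calls all 10 higher, with 10.3% of all genes higher. Slc4a9 and Foxi1 were close to the threshold, and each lost its call in 7 of the 8 fits that left out 1 library, all but the one without R1W replicate 3 (adjusted p = 0.0508 to 0.156 and 0.052 to 0.114 by limma). Other segments rose in the same week, 5 of 7 proximal tubule (3 after rescaling), 4 of 5 thick ascending limb and 3 of 6 distal convoluted and connecting tubule markers. By the fourth week all 10 were called higher than in UUO7, where 17.6% of all genes were, with log2 fold changes from 0.78 (Atp6v0d2) to 3.26 (Slc4a1), and all 10 also without R4W replicate 2 and after rescaling, there against 25.1% of all genes.

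Set against sham, the recovery groups differed from gene to gene. In R1W, Slc4a1 (-1.48, adjusted p = 8.92e-04 by limma) and Slc26a4 (-0.51, adjusted p = 0.0336) were still lower and Atp6v0d2 was higher (0.60, adjusted p = 2.66e-04), where 14.7% of all genes were called lower and 59.4% higher. After rescaling 5 were lower, namely Slc4a1, Slc26a4, Slc4a9 (-0.81), Foxi1 (-0.45) and Atp6v1g3 (-0.40), and none was higher, with 34.6% of all genes lower and 33.7% higher. The authors' deposited table calls 6 lower in R1W, those 5 and Rhcg, and none higher, with 34.0% of all genes lower. The call of Slc26a4 in R1W was lost without sham replicate 1 or 3 or R1W replicate 2 or 3 (adjusted p = 0.0726 to 0.131 by limma), and Slc4a9 was called lower without R1W replicate 1 (-0.49, adjusted p = 0.0480). In R2W, Slc4a1 was lower (-0.82, adjusted p = 0.0468 by limma) and Atp6v0d2 higher (0.66), where 12.9% of all genes were called lower and 56.1% higher. After rescaling 3 were lower in R2W, Slc4a1 (-1.18), Slc26a4 (-0.60) and Foxi1 (-0.37), and none higher, with 32.5% of all genes lower and 31.1% higher. The authors' deposited table calls Slc4a1 and Foxi1 lower in R2W and none higher, with 35.4% of all genes lower. With R4W replicate 2 placed in R2W, as its treatment label reads, Slc4a1 in R2W was at -0.59 and no longer called (adjusted p = 0.151 by limma). Its call was also lost in 6 of the 8 fits that left out 1 library, with log2 fold changes from -0.89 to -0.68.

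After 4 weeks no gene of the 10 was called lower than in sham, and 4 were called higher, where 54.8% of all genes were called higher and 11.6% lower. They were Atp6v0d2 (0.68, adjusted p = 1.07e-04 by limma), Foxi1 (0.61, adjusted p = 1.67e-04), Atp6v1b1 (0.52, adjusted p = 0.0224) and Aqp6 (0.48, adjusted p = 0.0494), and the share of all genes called higher was larger than theirs. After rescaling only Atp6v0d2 was called (0.33, adjusted p = 0.0450 by limma), where 28.9% of all genes were called higher. The authors' deposited table also calls Atp6v0d2 alone (0.36, adjusted p = 0.00217), with 30.9% of all genes higher. Foxi1 was then at 0.26 (adjusted p = 0.110 by limma), Atp6v1b1 at 0.15 and Aqp6 at 0.12, and 5 genes changed sign, Slc26a4, Slc4a9, Hmx2, Atp6v1g3 and Rhcg. Without R4W replicate 2, Aqp6 was not called as deposited (0.32, adjusted p = 0.197 by limma) and the other 3 were. Aqp6 lost its call in 5 of the 8 fits that left out 1 library, and Atp6v1b1 lost its call without R4W replicate 4 (0.45, adjusted p = 0.0669 by limma). Slc4a1 was at -0.06 (SE 0.36, adjusted p = 0.897 by limma), and at -0.41 after rescaling (adjusted p = 0.354). Between R1W and R4W, Slc4a1 rose by 1.43 (adjusted p = 0.0119 by limma) and Foxi1 by 0.64 (adjusted p = 0.00411), 2 of the 10 where 5.06% of all genes were called higher. Neither was called in a fit on the 2 groups alone (adjusted p = 0.0509 and 0.058 by limma), where 1.09% of all genes were called in either direction, and Slc4a1 was not called without R1W replicate 3 (1.29, adjusted p = 0.0572). Without R4W replicate 2, Slc26a4 (0.73) and Slc4a9 (0.67) were called higher as well, where 15.9% of all genes were called in either direction against 19.1% with it. Both were also called higher without R1W replicate 1 (0.72 and 0.67). The authors' deposited table calls these 4 genes higher in R4W than in R1W, with 8.75% of all genes higher.

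**Figure D3:**
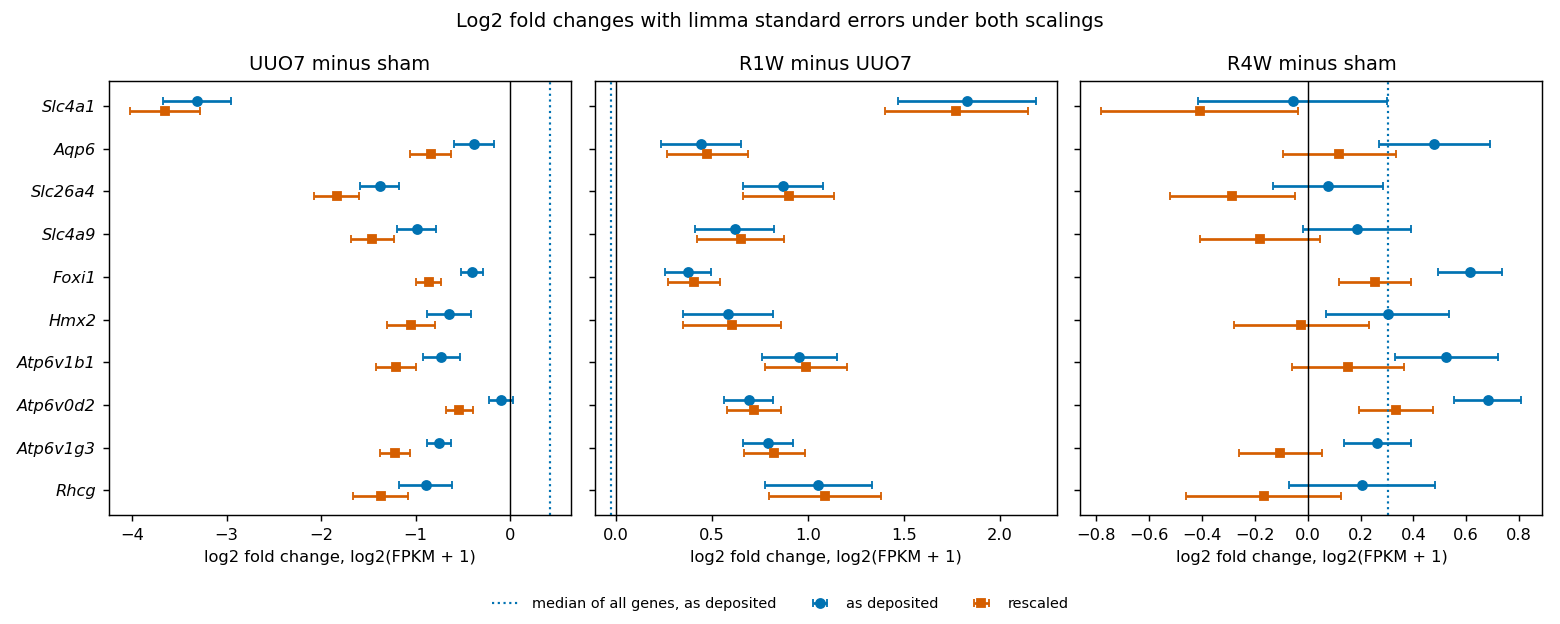
Log2 fold change of each gene with its limma standard error in UUO7 against sham, R1W against UUO7 and R4W against sham (horizontal axes, log2 of FPKM + 1), for the deposited values (circles) and after rescaling (squares); the dotted line is the median of all genes as deposited. The 2 scalings lie close together for R1W against UUO7 and apart by about the shift of the median gene in the comparisons with sham, where Slc26a4, Slc4a9, Hmx2, Atp6v1g3 and Rhcg change sign in R4W.

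Ratios of 2 genes within a library do not depend on how libraries were scaled, and 4 were tested in 3 comparisons each with two-sided exact permutation tests, whose smallest possible p with 4 against 4 is 0.0286. Atp6v1b1 was set against Atp6v1b2, the B2 subunit of the widely expressed pump. The ratio was 0.506, 0.563, 0.472 and 0.515 in sham and 0.299, 0.345, 0.319 and 0.448 in UUO7. It was 0.835, 0.708, 0.529 and 0.710 in R1W and 0.944, 0.908, 0.834 and 1.11 in R4W. UUO7 lay below sham and R4W above it without overlap, so B1 lost ground to B2 in obstruction and stood higher relative to B2 at 4 weeks than in sham animals. The log2 difference was -0.56 between UUO7 and sham, 0.98 between R1W and UUO7 and 0.88 between R4W and sham (each exact p = 0.0286, adjusted p = 0.0343 over the 12 tests). Levels of Atp6v1b2 ran from 121 to 143 FPKM in sham and from 97.9 to 111 FPKM in R4W.

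Atp6v0d2 against Atp6v0d1, the widely expressed d1 subunit, did not differ detectably between UUO7 and sham. The geometric mean ratio was 0.166 in sham and 0.167 in UUO7 (log2 difference 0.0025, exact p = 0.971), and it was 0.277 in R1W and 0.258 in R4W (log2 difference of R4W from sham 0.63, exact p = 0.0286). Atp6v1g3 against Atp6v1g1, the widely expressed G1 subunit, fell from 0.227 in sham to 0.0994 in UUO7 and stood at 0.184 in R1W and 0.271 in R4W. Its log2 difference was -1.19 from sham to UUO7, 0.89 from UUO7 to R1W and 0.26 from sham to R4W, each without overlap and with exact p = 0.0286. All 3 subunits of the intercalated cell were higher relative to their widely expressed partners in R4W than in sham. A ratio does not tell a rise of the subunit from a fall of its partner. After rescaling, Atp6v0d2 was called higher in R4W (0.33), and Atp6v1b1 (0.15) and Atp6v1g3 (-0.10) were not called. Of the 17 widely expressed subunits 12 were then called lower, beside 31.1% of all genes.

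The ratio of Slc4a1 to Slc26a4, a type A against a type B exchanger, was 0.376, 0.872, 0.485 and 0.695 in sham and 0.0491, 0.0656, 0.0643 and 0.0642 in UUO7. In R1W it was 0.30, 0.251, 0.2003 and 0.296, and in R4W 0.451, 0.962, 0.351 and 0.492. UUO7 lay below all other animals, R1W between UUO7 and sham, and R4W overlapped sham. The log2 difference was -3.26 in UUO7 against sham and 2.10 in R1W against UUO7 (each exact p = 0.0286), and -0.14 in R4W against sham (exact p = 0.800). In UUO2 the ratio was 0.127, 0.652, 0.126 and 0.124, with replicate 2 inside the sham range. Of the 12 ratio tests, 10 gave the smallest exact p.

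**Figure D4:**
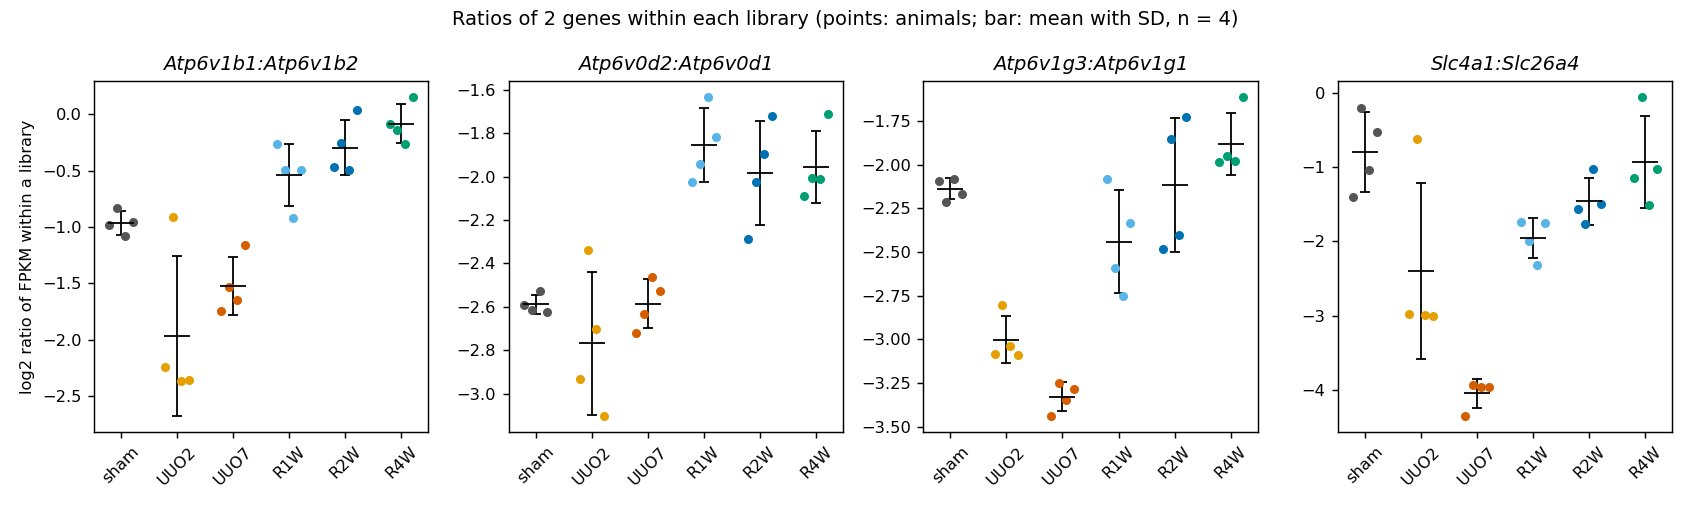
Log2 ratio of FPKM within each library for Atp6v1b1 to Atp6v1b2, Atp6v0d2 to Atp6v0d1, Atp6v1g3 to Atp6v1g1 and Slc4a1 to Slc26a4, by group; points are animals, the bar is the mean with SD, n = 4, and each panel has its own vertical axis. The first and the third ratio are lower in UUO7 and higher in R4W than in sham, the second is higher in the recovery groups only, and Slc4a1 to Slc26a4 overlaps sham in R4W, from 0.351 to 0.962 against 0.376 to 0.872.

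Other genes known from intercalated cells moved in both directions by day 7. Of 21 listed, 20 had an entry, and in UUO7 against sham 9 were called lower, 4 higher and 7 not, with a median log2 fold change of -0.18 beside 0.42 for all genes and with 17.8% of all genes called lower and 60.1% higher. After rescaling 14 were lower and 2 higher, against 36.5% of all genes in each direction. The called genes of largest change were Rhbg (-1.68), an ammonia transport protein related to Rhcg, Atp4a (-1.68), the catalytic subunit of the gastric type proton-potassium pump, Insrr (-1.63), a receptor kinase that senses alkaline pH, and Bsnd (-1.49), the accessory subunit of the ClC-K chloride channels. In the first week of recovery 10 of the 20 were called higher than in UUO7 and none lower, where 6.47% of all genes were called higher. In R4W against sham 9 of the 20 were called higher and none lower, and 6 higher and 3 lower after rescaling, beside 54.8% of all genes called higher as deposited and 28.9% after rescaling, so these shares are near or below the background.

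The calls of the 17 widely expressed V-ATPase subunits depended on the scaling. In UUO7 against sham 10 were called higher and 3 lower, with a median of 0.18, beside 60.1% of all genes higher and 17.8% lower, shares near those of the list. After rescaling none was higher and 11 were lower, beside 36.5% of all genes in each direction. The called subunits of largest change were Atp6v1a (-0.91), the catalytic A subunit, and Atp6v0b (0.62), Atp6v0e (0.46) and Atp6v1c1 (0.43). In R4W against sham 3 were called higher and 2 lower, beside 54.8% and 11.6% of all genes, and none higher and 12 lower after rescaling, beside 28.9% and 31.1%. Most acid-base genes of the proximal tubule were lower in UUO7 and in R4W. Of 8, 7 were called lower and 1 higher in UUO7 with a median of -1.34, with Car14 (-3.01), a membrane carbonic anhydrase, Pck1 (-2.34), an enzyme of gluconeogenesis, Slc9a3 (-2.10), the sodium-proton exchanger NHE3, and Slc4a4 (-1.34), the sodium-bicarbonate cotransporter NBCe1, the largest changes. In R4W 6 of the 8 were still called lower than in sham, with a median of -0.69, where none of the 10 intercalated cell genes was. Principal cell markers, the neighbours of intercalated cells, were called lower for 4 of 10 and higher for 1 in UUO7, and lower for 6 and higher for none after rescaling. In R4W 5 of the 10 were called higher, near the 54.8% of all genes, and 1 after rescaling, below the 28.9% of all genes. No entry was found for any of 5 mast cell markers, and the 4 urothelial markers summed to 1.42 to 30.5 FPKM in sham and 36.8 to 117 FPKM in R4W.

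The 10 genes also varied together between animals of 1 group. Over the 45 gene pairs, Pearson r of log2 values across the 24 libraries ran from 0.53 (Slc4a1 with Atp6v0d2) to 0.94 (Atp6v1b1 with Rhcg), with a median of 0.75. After each library's group mean was removed, r ran from 0.064 to 0.88 with a median of 0.47, and all 45 were positive. The pairs share libraries and their scaling, so these are descriptions. Within groups Slc4a1 had r of 0.84 with Atp6v1b1 and 0.82 with Rhcg, and those 2 had 0.86 with each other. UUO2 replicate 2 stood apart for all 3 genes, and its part in these r was not tested. No such r was taken for pairs of genes outside the 10, so the values cannot be read as particular to them. In R2W replicates 2 and 4 held more than replicates 1 and 3 for all of the 10 except Atp6v0d2, as for Atp6v1b1 with 97.4 and 101 FPKM against 64.3 and 66.9 FPKM. Other cell types split the same libraries. Summed proximal tubule markers were 3752 and 3122 FPKM against 1971 and 2049 FPKM, distal convoluted and connecting tubule markers 528 and 610 FPKM against 378 and 388 FPKM, and macrophage markers 819 and 1051 FPKM against 2019 and 1646 FPKM. Their part in the shared variation of the 10 genes was not tested.

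The genes outside the 10 whose log2 levels were most like those of Slc4a1 over the 24 libraries were Aqp3, a water channel of principal cells (r = 0.97), Slc16a7, a monocarboxylate transporter (0.97), Cyfip2 (0.97), Cpeb3 (0.95) and Slc2a5, a fructose transporter (0.95). For Slc26a4 they were Insrr (0.96), Slc22a8, an organic anion transporter (0.94), Klk1, tissue kallikrein (0.93), Ak4 (0.93) and Tnfaip8 (0.92). For Foxi1 they were Cavin2 (0.87), Stard8 (0.85), Mertk (0.85), Nsf (0.85) and Slit2 (0.85). Genes were ranked only where their mean over the libraries was at least 5 FPKM.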

How the data were processed

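RNA from 24 kidneys, 4 in each of 6 groups, was analysed. The submitters' processing notes name FastQC, RSEM, Bowtie2, DESeq2 and the build mm10, with no versions or order. The table deposited by the authors holds 1 normalized value per gene and library, taken here as FPKM because values times transcript length sum to a common total. Its columns sum to 717415 to 830179, and every gene has a mean of at least 1. The log2 fold changes and adjusted p-values of the authors' deposited table were copied and used as a comparison only. They are taken as log2 because their slope on log2 ratios of group means is 0.98.

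From the deposited FPKM values, log2(FPKM + 1) was fitted with limma 3.58.1 (R 4.3.3; lmFit and eBayes with trend), all 24 libraries in 1 model with 1 coefficient per group, in 9 contrasts. P-values were adjusted by Benjamini-Hochberg over 14785 genes. A fold change on this scale understates the change of low genes such as Slc4a1. Ratios used a pseudocount of 0.01 and two-sided exact permutation tests. Rescaling divided each library by its median ratio to the geometric mean over libraries. That factor averaged 0.814 in sham and 0.894 in UUO2, and from 1.06 (R4W) to 1.14 (UUO7) in the other groups. The fit was tested on simulated data for UUO7 against sham with 14785 genes. It called 92 of 100 genes made to differ by a log2 fold change of 1, 95 of 100 at 2, and 9 of 14585 made with no difference. All simulated libraries were drawn around the sham means with no shift of the median gene, so the check does not cover the scaling of these data. The number of fragments behind a value limits its precision, and no interval was drawn from counts, since none were used.

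The 10 genes, the gene lists and the tests were chosen with earlier results of these data known. Genes named from a list are up to 4 of the largest change among those called in UUO7 against sham, plus markers set beside a result. Genes of like pattern are the 5 of highest r for each of 3 genes. Alternatives were rescaling, a pseudocount of 0.1 or of 10, a filter at a mean of 5 FPKM, a minimum absolute log2 fold change of 1, fits on 2 groups or without UUO2, a replicate block, each replicate left out, and R4W replicate 2 left out or placed in R2W. Rescaling without UUO2 replicate 2 was added after seeing the data. RefSeq promoter windows were read by gene symbol. Slc4a1, Atp6v0d2 and Slc4a9 are named only.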

Additional observations from a re-analysis of the deposited data

Results flagged for a closer look

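Within a group of 4 animals, 9 of 84 values or ratios checked had 1 library whose gap to the nearest other exceeded Dixon's 95% critical value, where chance would give about 1 in 20, or 4.2. The 9 came from 4 libraries. UUO2 replicate 2 accounted for Slc4a1 at 9.70 FPKM (the others 1.24 to 1.75), Atp6v1b1 at 65.4 FPKM (28.0 to 30.8), Rhcg at 79.0 FPKM (19.5 to 23.5), the ratio of Atp6v1b1 to Atp6v1b2 at 0.532 (0.194 to 0.211) and the ratio of Slc4a1 to Slc26a4 at 0.652 (0.124 to 0.127). R4W replicate 4 held Atp6v0d2 at 18.8 FPKM (15.3 to 15.5) and a ratio of Atp6v1g3 to Atp6v1g1 of 0.327 (0.252 to 0.259). UUO7 replicate 3 held Rhcg at 41.6 FPKM (30.5 to 31.6), and UUO7 replicate 1 a ratio of Slc4a1 to Slc26a4 of 0.0491 (0.0642 to 0.0656).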

How the results depend on the processing

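All 10 log2 fold changes were negative in UUO7 against sham and positive in R4W against UUO7 under both scalings, though Aqp6 and Atp6v0d2 were called in UUO7 only after rescaling. Against sham, 4 of the 10 changed sign in R1W, 5 in R2W and 5 in R4W, while the log2 fold changes of Slc4a1 were negative and those of Atp6v0d2 positive in all 3 recovery groups under both scalings, without a call for Slc4a1 in R4W under either or for Atp6v0d2 in R1W and R2W after rescaling. With a minimum log2 fold change of 1 in either direction, 2 genes were called in UUO2 against sham, 2 in UUO7 against sham, 1 in UUO7 against UUO2, 2 in R1W against UUO7, 1 in R1W, 0 in R2W and 0 in R4W against sham, and 1 in R4W against R1W. The shares of all genes past that minimum were 8.75%, 27.6%, 16.2%, 1.33%, 20.4%, 16.6%, 14.8% and 0.771% in the same order. In R4W against UUO7, Atp6v0d2 (0.78), Aqp6 (0.86) and Hmx2 (0.95) lay below the minimum and the rest of the 10 above it, where 6.03% of all genes were called. Rescaling gave 4 in UUO7 against UUO2 (4 also without UUO2 replicate 2), 5 in R1W and 1 in R4W against sham. A pseudocount of 10 gave 1 in UUO7 against UUO2 (Slc4a1 lost) and ended the calls of Atp6v1g3 in UUO2 against sham (adjusted p = 0.0544 by limma) and of Slc4a9 (0.0549) and Foxi1 (0.0504) in R1W against UUO7, while Slc26a4 gained a call in R4W against R1W (0.0470, and 0.0464 with the filter at 5 FPKM). A pseudocount of 0.1 gave 1 in R2W against sham (Slc4a1 lost). Fits on the 2 groups compared gave 4 in UUO7 against UUO2 and 0 in R4W against R1W. They ended the calls of Slc4a9 in R1W against UUO7 (adjusted p = 0.0745 by limma) and Aqp6 in R4W against sham (0.158), and added Atp6v1b1 in R1W (0.0244) and Atp6v1g3 (0.0137) and Rhcg (0.00938) in R4W against sham as higher. The fit without UUO2 ended the same calls of Slc4a9 (0.0563) and Aqp6 (0.0632). Placing R4W replicate 2 in R2W gave 1 in R2W against sham and 4 in R4W against R1W, and turned Foxi1 in R2W against sham to 0.16.

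Rescaling reversed the sign of Atp6v0d2 in UUO2 against sham (-0.03, and -0.18 without UUO2 replicate 2), and in UUO7 against UUO2 of Foxi1 (-0.21, and -0.11 without that library), Atp6v1b1 (-0.20) and Rhcg (-0.17). Against sham it reversed Aqp6 (-0.36), Atp6v1b1 (-0.22), Atp6v1g3 (-0.40) and Rhcg (-0.28) in R1W, Aqp6 (-0.20), Hmx2 (-0.27), Atp6v1b1 (-0.12), Atp6v1g3 (-0.22) and Rhcg (-0.31) in R2W, and Hmx2 (-0.024), Slc26a4 (-0.29), Slc4a9 (-0.18), Atp6v1g3 (-0.10) and Rhcg (-0.17) in R4W.

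Replicate numbers were not taken as pairing the animals, since in none of the 9 comparisons did all 4 same-numbered pairs correlate above 0.1 in their deviations from the group means. In R1W against UUO7 2 of the 4 did (r from -0.077 to 0.45), and 4 of the 8 samples correlated best with their own number. In R4W against UUO7 1 of the 4 did (r from 0.042 to 0.12, all positive), but 6 of the 8 samples correlated best with their own number. In UUO7 against sham no pair did (r from -0.25 to -0.042), and in the other comparisons 0 or 1 did. With the replicate block the genes called were 6 in UUO2 against sham, 8 in UUO7 against sham and 7 in R1W against UUO7. The calls lost were Atp6v1g3 in UUO2 against sham (adjusted p = 0.0510 by limma) and Slc4a9 in R1W against UUO7 (0.0512). Without the block 49.2%, 77.9% and 14.5% of all genes were called in either direction, in the same order. The shares of all genes with the block are not given here, so these counts cannot be read against that background. With the block as pairs the ratio tests cannot go below p = 0.125, and the differences of -0.56, 0.98 and 0.88 (Atp6v1b1 to Atp6v1b2), 0.73 and 0.63 (Atp6v0d2 to Atp6v0d1), -1.19, 0.89 and 0.26 (Atp6v1g3 to Atp6v1g1) and -3.26 and 2.10 (Slc4a1 to Slc26a4) had an adjusted exact p of 0.150. With R4W replicate 2 in R2W the differences of R4W from sham were 0.90, 0.65 and 0.28, which 3 against 4 animals leave at an adjusted exact p of 0.0686.

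Leaving out each replicate in turn, the number of genes called ran from 6 to 8 in R1W against UUO7 (with 7.55% of all genes called without R1W replicate 4 to 17.1% without R1W replicate 3, beside 14.5% with all), 1 to 2 in R2W against sham, 2 to 4 in R4W against sham (2 without R4W replicate 4), 1 to 4 in R4W against R1W (4 without R4W replicate 2 or R1W replicate 1, with the share of all genes called running from 4.92% without R1W replicate 3 to 23.6% without R1W replicate 1) and 2 to 4 in UUO7 against UUO2 (4 without UUO2 replicate 2). The share of all genes called in these fits was 63.3% to 70.6% in R2W and 61.2% to 66.0% in R4W against sham. It was 62.6% to 65.7% in UUO7 against UUO2. Log2 fold changes that crossed 0 were those of Atp6v0d2 in UUO2 against sham (-0.053 to 0.19), of Aqp6 (-0.10 to 0.033) and Rhcg (-0.026 to 0.63) in UUO7 against UUO2, of Aqp6 (-0.084 to 0.25), Atp6v1g3 (-0.053 to 0.11), Foxi1 (-0.071 to 0.014) and Hmx2 (-0.19 to 0.077) in R1W against sham, of Foxi1 (-0.054 to 0.075), Hmx2 (-0.17 to 0.28), Rhcg (-0.025 to 0.20) and Slc4a9 (-0.21 to 0.15) in R2W against sham, of Slc26a4 (-0.029 to 0.23) and Slc4a1 (-0.20 to 0.13) in R4W against sham and of Rhcg (-0.055 to 0.099) in R4W against R1W. With 1 animal out, exact p of a ratio cannot go below 0.0571. The ratio of Atp6v1b1 to Atp6v1b2 ran from -0.68 to -0.48 in UUO7 against sham, 0.88 to 1.10 in R1W against UUO7 and 0.80 to 0.94 in R4W against sham, that of Atp6v0d2 to Atp6v0d1 from -0.038 to 0.047, 0.66 to 0.79 and 0.55 to 0.68, that of Atp6v1g3 to Atp6v1g1 from -1.22 to -1.16, 0.77 to 0.99 and 0.17 to 0.29, and that of Slc4a1 to Slc26a4 from -3.46 to -3.06, 2.00 to 2.22 and -0.43 to 0.058.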
